A study of Mus musculus with 16 samples.

Results

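The 10 genes described here set up or serve the apical-basal axis of epithelial cells, and they were chosen by name, with earlier results of these data known. They are Crb3 of the Crumbs complex, Pard3, Pard6b, Prkcz and Prkci of the PAR complex, Scrib and Llgl2 of the Scribble module, Rab25 of the apical recycling endosome, and the membrane protease St14 (matriptase) with its inhibitor Spint1 (HAI-1). Each gene was read from its single-symbol probe set of highest mean over the 16 arrays, and the 10 are among the 18716 genes that could be named. All 10 passed the filter on low values, which kept 32000 of 35556 probe sets. Their mean levels lay between percentile 65.7 (Prkcz) and percentile 92.7 (Prkci) of all probe sets.

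In an epithelium the Crumbs complex and the PAR complex mark the apical side and the Scribble module the basolateral side, and the groups exclude each other largely through phosphorylation by atypical protein kinase C. Rab25 belongs to the Rab11 family of small GTPases, which returns membrane proteins from recycling endosomes to the apical surface. At gastrulation, epiblast cells, which form an epithelium, give rise to mesenchymal mesoderm and to definitive endoderm, which is an epithelium too. The genes of this machinery are therefore of interest on both routes.

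RNA was taken from mouse embryonic stem cells (mESCs) with T GFP/+; Foxa2 tagRFP/+ reporters and from their derivatives in culture and measured on arrays of the Affymetrix Mouse Gene ST 1.0 design. Foxa2+/T- cells with high CD24, named definitive endoderm (DE), and with low CD24, named definitive endoderm progenitors (DEP), were sorted at days 4 and 2 of endoderm differentiation with 12 ng/ml activin A. T+/Foxa2- cells without CD24, named mesoderm (MES), were sorted at day 4, and those with low CD24, named mesoderm progenitors (MP), at days 4 and 2, after culture in a medium made by adding 7.5 ng/ml Bmp4 and 3 ng/ml activin A to that for endoderm. Whether the 3 ng/ml replaced the 12 ng/ml or came on top of it is not clear from the sources. Undifferentiated, unsorted mESCs completed the 8 groups, with 2 biological replicates each. All groups carry both reporter alleles, the sorted cells were differentiated on Wnt3a-expressing feeder cells, and the mESCs were kept on embryonic fibroblasts with leukemia inhibitory factor. The labels name the line E14.1 on 129/Ola, whereas the methods name another parental line. Foxa2, T and CD24 were used for sorting, and the gate and the medium changed together between lineages, so that they cannot be told apart. In sorted bulk RNA, fewer cells that express a gene and less RNA per cell cannot be told apart either.

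The medians of the 32000 probe sets lay between 7.725 and 7.803 on the log2 scale over the 16 arrays, and the 2 replicates of a group correlated with r between 0.987 and 0.994. Of 8 endoderm markers 6 had their highest group mean in DE at day 4 and the other 2 in DE at day 2, all 8 mesoderm markers were highest in MES, and 5 of 8 pluripotency markers were highest in mESCs and the other 3 in DEP at day 2. Of 11 measured fibroblast markers 9 were highest in the unsorted mESCs, with a summed level on the log2 scale of 13.07 and 13.39, against at most 11.77 in any sorted array. Of 10 visceral endoderm markers 7 were highest in DE at day 4, where their summed level was 13.03 and 13.08, against at most 11.35 elsewhere. Of the 10 on this list, Apoa1, Hnf4a and Rbp4 had group means of 12.03, 11.3 and 9.68 in DE at day 4. Afp (6.40 there, and highest in DE at day 2) and Fgb (6.53) were within 0.3 of their level in mESCs (6.25 and 6.36). Cubn of the same list was highest in DEP at day 2 (10.12, against 6.55 in mESCs). Of 8 markers of surface ectoderm or trophectoderm, 3 were highest in T+ cells of day 4, where the summed level was 12.32 to 12.44, against at most 11.03 in Foxa2+ arrays and 10.95 in MP at day 2. These were Hand1 (11.78 in MES), Cdx2 (10.82 in MP at day 4) and Tfap2a (9.34 in MP at day 4), of which Hand1 and Cdx2 are known from mesoderm too. Another 4 of the list were highest in DE at day 4, namely Gata3, Krt14, Krt5 and Elf5. Gata3 had a mean of 9.946 there, against 6.971 in mESCs, and Krt14 had 7.593, against 7.282. Krt5 and Elf5 stayed below 7 in every group. The summed level of 6 neuroectoderm markers was 12.35 to 13.27 in Foxa2+ arrays, against at most 11.95 elsewhere, and was led by Otx2 (13.14 in DE at day 4), a gene of anterior endoderm too, while Sox1 differed little between groups (8.15 to 8.38). Nes of the same list was highest in DEP at day 2 (10.16), with 9.12 in MP at day 2, and lowest in DE at day 4 (6.74). Pax6 was highest in mESCs (7.30). The part of such cells in the results below was not tested.

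The upstream sequences of 3 genes are given because these 3 moved together over the arrays. They come from RefSeq, build GRCm38.p6, as the 250 bases before a transcription start, read 5′ to 3′ on the strand of the gene. Capitals mark matches, on either strand, to the E-box CAGGTG, which Snail and Zeb factors bind, or to AACCGGTT or AACAGGTT, the form bound by grainyhead-like factors of epithelia. Rab25 lies on the minus strand (chr3:88548280-88548529), Crb3 on the plus strand (chr17:57061951-57062200) and Spint1 on the plus strand (chr2:119237110-119237359).
Rab25: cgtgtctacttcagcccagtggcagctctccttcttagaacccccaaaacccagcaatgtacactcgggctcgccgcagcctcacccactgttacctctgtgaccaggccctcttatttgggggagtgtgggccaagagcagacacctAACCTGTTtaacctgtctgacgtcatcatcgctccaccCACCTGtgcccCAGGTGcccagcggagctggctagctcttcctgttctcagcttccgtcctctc
Crb3: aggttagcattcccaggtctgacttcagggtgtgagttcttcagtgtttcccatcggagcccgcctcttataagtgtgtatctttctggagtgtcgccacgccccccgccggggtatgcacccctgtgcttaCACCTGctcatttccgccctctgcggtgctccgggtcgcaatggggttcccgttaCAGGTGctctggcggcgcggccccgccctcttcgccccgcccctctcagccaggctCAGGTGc
Spint1: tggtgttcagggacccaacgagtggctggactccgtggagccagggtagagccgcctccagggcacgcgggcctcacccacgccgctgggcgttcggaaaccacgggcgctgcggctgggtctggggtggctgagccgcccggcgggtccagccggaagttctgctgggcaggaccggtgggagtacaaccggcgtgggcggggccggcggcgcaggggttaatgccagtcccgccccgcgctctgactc
Rab25 holds the grainyhead form at -102 and E-boxes at -64 and -53 from the start, Crb3 holds E-boxes at -118, -63 and -7, and the Spint1 sequence holds neither motif. RefSeq promoters were matched for 7 of the 10 genes (not for Llgl2, Scrib and St14), and 5 of the 7 held the E-box in at least 1 promoter (Rab25, Crb3, Pard3, Pard6b and Prkcz). The E-box was present in 17.2% of all 32851 promoters of this length, and in 19.4% of the 27025 genes with a promoter in the table. The 7 genes had 11 promoters, with a GC content between 51.6% and 79.2% (both in Pard3), against a median of 52.4% over all promoters. The counts were not adjusted for the number of promoters per gene or for GC content. The grainyhead form was present in 0.953% of the promoters, in Rab25 alone among these genes. The forkhead motif TGTTTAC or TATTTAC, present in 5.76% of all promoters, was in 0 of the 11 promoters of the 7 genes. These are matches of letters, and binding was not measured.

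**Figure D1:**
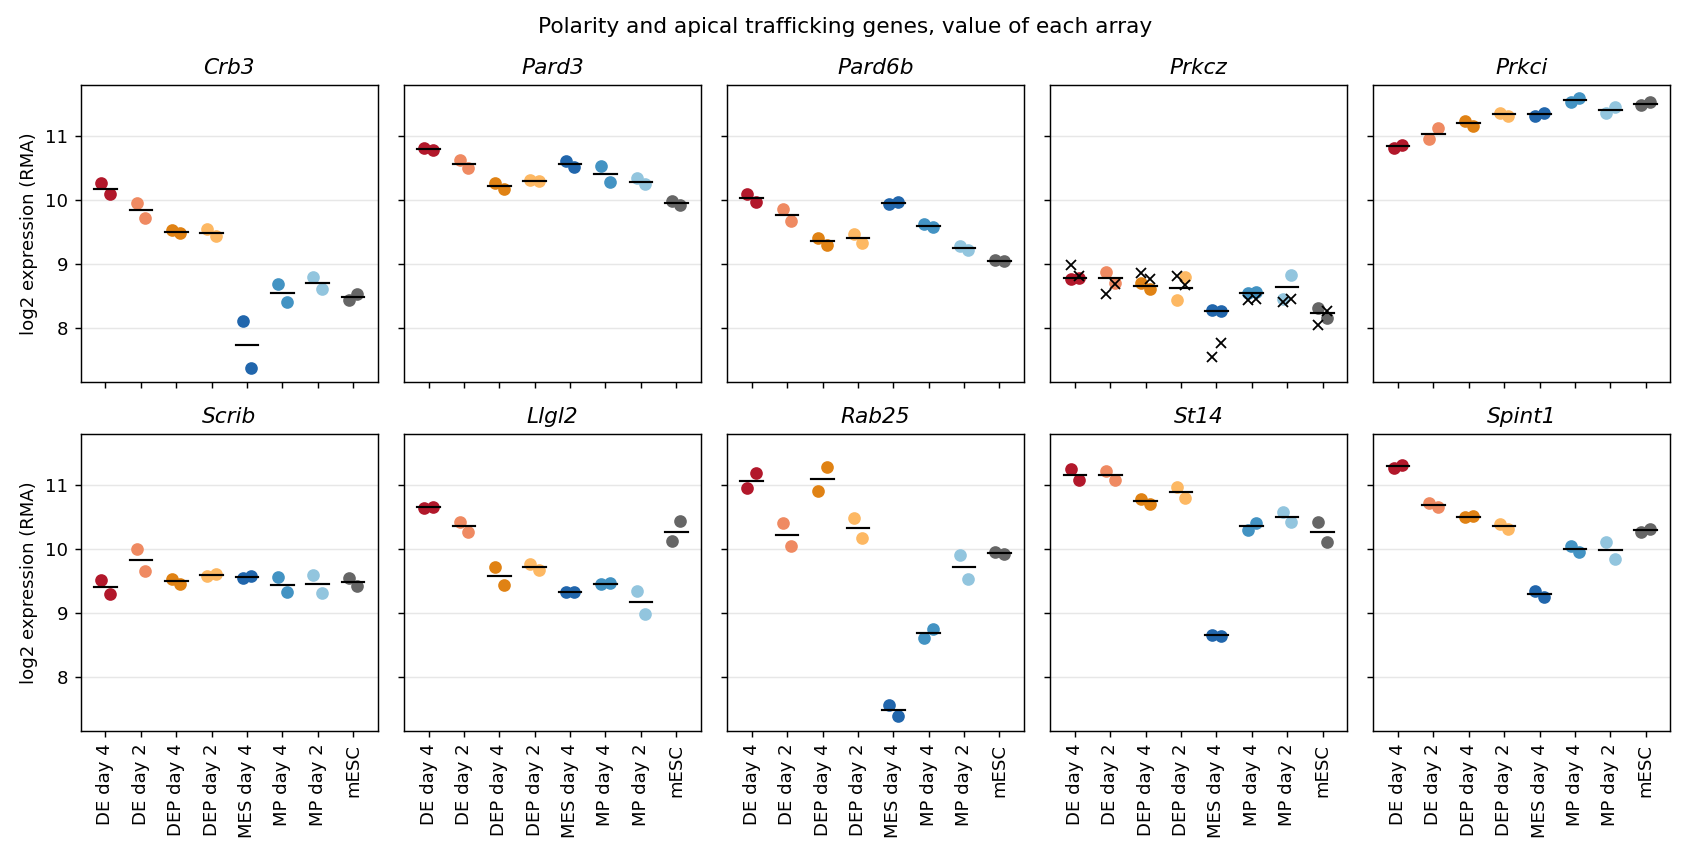
log2 expression of the 10 genes on each array, by group, with points for the 2 replicates of a group and a line for their mean. Crosses in the Prkcz panel are the second probe set of that gene. Rab25, Crb3, St14 and Spint1 are lowest in both MES arrays, and Prkci is lowest in both DE arrays of day 4.

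Rab25, a Rab11-family GTPase of the apical recycling endosome, spanned 3.61 on the log2 scale between group means, the widest of the 10 genes. Its log2 values were 10.95 and 11.18 in DE and 10.90 and 11.28 in DEP at day 4, and 10.40 and 10.04 in DE and 10.48 and 10.17 in DEP at day 2. In T+ cells they were 7.57 and 7.39 in MES, 8.61 and 8.75 in MP at day 4 and 9.90 and 9.53 in MP at day 2, and in mESCs 9.95 and 9.91. Every Foxa2+ array was thus above every mESC array, and every mESC array above every T+ array, with MES at the bottom. DE and DEP overlapped at both days (at day 4 DE minus DEP was -0.03, 95% interval -0.41 to 0.36). The step between mESCs and MP at day 2 did not pass the test, at -0.21 for MP minus mESC (SE 0.18, adjusted p = 0.499).

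Crb3, the small transmembrane Crumbs protein of mammalian epithelia, gave 10.26 and 10.08 in DE at day 4, 9.95 and 9.71 in DE at day 2, 9.52 and 9.47 in DEP at day 4 and 9.54 and 9.43 in DEP at day 2. It gave 8.10 and 7.36 in MES, 8.68 and 8.41 in MP at day 4, 8.79 and 8.60 in MP at day 2, and 8.44 and 8.53 in mESCs. All 8 Foxa2+ arrays were above all 8 other arrays. DEP at days 4 and 2 overlapped, MP at both days and mESCs overlapped their neighbours in the order, and the 2 MES arrays stood apart from each other by more than the replicates of any other group did for this gene.

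St14, matriptase, is a serine protease anchored in the membrane of epithelial cells. Its values were 11.24 and 11.07 in DE at day 4, 11.22 and 11.08 in DE at day 2, 10.78 and 10.70 in DEP at day 4 and 10.96 and 10.79 in DEP at day 2, against 8.66 and 8.64 in MES, 10.30 and 10.40 in MP at day 4, 10.58 and 10.42 in MP at day 2 and 10.42 and 10.11 in mESCs. The MES arrays lay apart from the other 14, which together covered little more than 1 log2 unit.

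Spint1, the Kunitz-type inhibitor that binds matriptase, was highest in DE at day 4 (11.26 and 11.31), followed by DE at day 2 (10.72 and 10.66), DEP at day 4 (10.49 and 10.52) and DEP at day 2 (10.38 and 10.31). It was lowest in MES (9.34 and 9.25), with 10.04 and 9.96 in MP at day 4, 10.11 and 9.85 in MP at day 2, and 10.27 and 10.31 in mESCs. DE at day 4 and MES were each clear of all other groups, while the MP groups of both days overlapped.

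Llgl2, a Lethal giant larvae protein that atypical protein kinase C keeps off the apical side, had mESCs next to DE of day 2 in the order of its group means. It gave 10.64 and 10.65 in DE at day 4, 10.42 and 10.27 in DE at day 2, 9.72 and 9.43 in DEP at day 4 and 9.77 and 9.66 in DEP at day 2. The T+ values were 9.32 and 9.32 in MES, 9.45 and 9.47 in MP at day 4 and 9.35 and 8.98 in MP at day 2, and mESCs gave 10.12 and 10.43. DE and mESCs therefore lay above all DEP, MP and MES arrays.

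The PAR complex genes moved less. Pard6b, the adaptor that links Cdc42 to the kinase, had 10.08 and 9.97 in DE at day 4, 9.85 and 9.67 in DE at day 2, 9.41 and 9.29 in DEP at day 4, 9.46 and 9.32 in DEP at day 2, 9.93 and 9.97 in MES, 9.61 and 9.57 in MP at day 4, 9.28 and 9.21 in MP at day 2 and 9.06 and 9.04 in mESCs. Pard3, the scaffold of the complex, had group means of 10.79 in DE at day 4, 10.55 in MES and 9.95 in mESCs. In both genes DE at day 4 had the highest mean and mESCs the lowest. Prkci, the atypical kinase that mouse embryos cannot do without, ran the other way, with 10.81 and 10.86 in DE at day 4, 10.95 and 11.12 in DE at day 2, 11.23 and 11.15 in DEP at day 4, 11.36 and 11.30 in DEP at day 2, 11.30 and 11.36 in MES, 11.52 and 11.58 in MP at day 4, 11.36 and 11.44 in MP at day 2 and 11.47 and 11.52 in mESCs. Scrib, the scaffold of the basolateral module, differed least between groups, with means between 9.83 in DE at day 2 and 9.41 in DE at day 4.

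Prkcz, the second atypical kinase, has a pair of probe sets that do not give the same picture. The set of higher mean had group means between 8.78 in DE at day 2 and 8.23 in mESCs, with 8.77 in DE at day 4 and 8.26 in MES. The other set gave 8.97 and 8.80 in DE at day 4, against 7.55 and 7.75 in MES. The difference between DE and MES was 0.51 (SE 0.14, adjusted p = 0.023) on the first, short of the fold threshold, and 1.24 (SE 0.11, adjusted p = 8.05e-06) on the second, so the size of the Prkcz difference is uncertain, with DE higher on both.

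DE was compared with MES at day 4 for the difference between the end points of both routes, in which the CD24 gate and the medium differ too. A gene was called where its log2 fold change exceeded 1 in either direction and the adjusted p of limma was below 0.05. Of the 10 genes 5 were called, all higher in DE, where 7.86% of all genes were called in either direction and 4.26% were called higher. As the 10 were chosen with earlier results of these data known, such counts are descriptions and no independent test. Rab25 was 12.0-fold higher in DE (log2 fold change 3.58, SE 0.18, adjusted p = 6.75e-08). St14 was 5.7-fold higher (2.51, SE 0.12, adjusted p = 5.39e-08) and Crb3 5.41-fold higher (2.44, SE 0.20, adjusted p = 3.40e-06). Spint1, so that inhibitor and protease were higher together, was 3.98-fold higher (1.99, SE 0.09, adjusted p = 5.39e-08) and Llgl2 2.51-fold higher (1.33, SE 0.14, adjusted p = 3.54e-05). In all 5, both DE arrays were above both MES arrays. Prkci differed by -0.50 (adjusted p = 0.00138), below the fold threshold, and the intervals of Pard6b (-0.13 to 0.28), Pard3 (0.02 to 0.44) and Scrib (-0.45 to 0.16) exclude a difference of 1. The median log2 fold change was 0.92 over the 10 genes and 0.02 over all genes. The 5 calls held when any 1 array was left out.

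**Figure D2:**
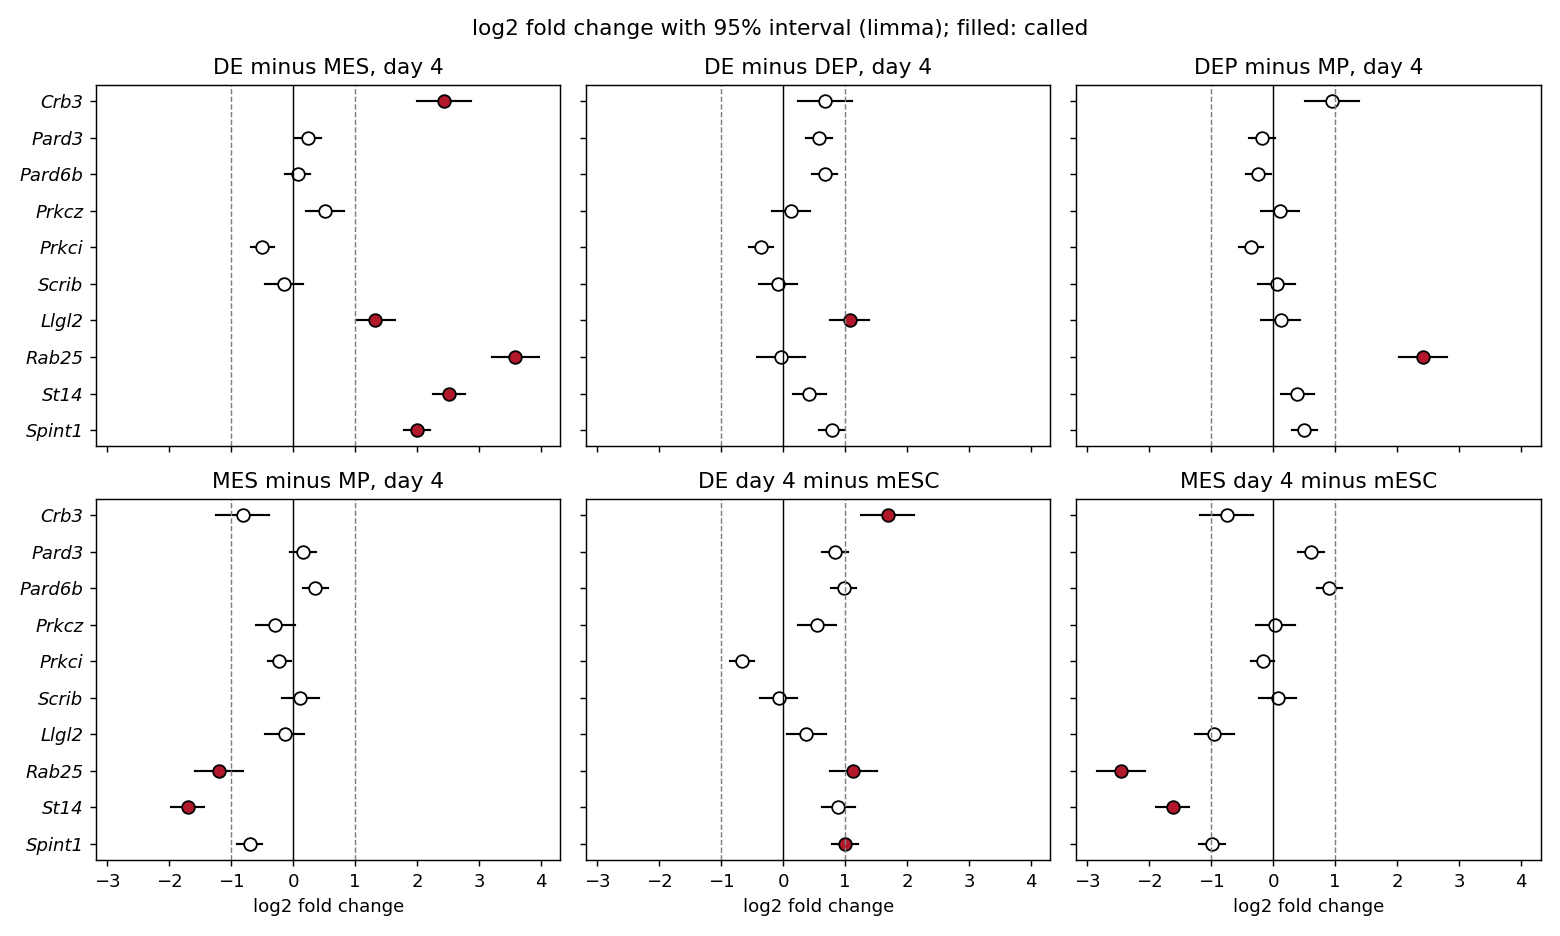
log2 fold change of each gene with its 95% interval from limma in 6 comparisons, with filled points for called genes and dashed lines at the fold threshold of 1. Rab25, St14, Crb3, Spint1 and Llgl2 are called in DE against MES, Rab25 alone in DEP against MP, and the intervals of Pard3, Pard6b and Scrib stay near 0 in DE against MES.

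At equal, low CD24, 1 of the 10 genes was called between the lineages at day 4, where 3.55% of all genes were called. Rab25 was 5.33-fold higher in DEP than in MP (log2 fold change 2.41, SE 0.18, adjusted p = 3.87e-06). Crb3 came close, at 0.95 (SE 0.20, adjusted p = 0.00911), and it passed at 1.09 without the first MP array of day 4. Spint1 was 0.50 (adjusted p = 0.00497) and St14 0.39 (adjusted p = 0.0728) above MP, both below the fold threshold. Prkci went the other way, at -0.36 (adjusted p = 0.0209). At day 2, 0 of the 10 were called by limma, where 1.19% of all genes were, and 5 had an unadjusted p below 0.05. No share of all genes was computed for that looser cut. Crb3 (0.79, SE 0.20, adjusted p = 0.0696) and Rab25 (0.61, SE 0.18, adjusted p = 0.125) had the highest differences of the 10 at that day. The median log2 fold change of the 10 genes was 0.11 at day 4 and 0.26 at day 2, against 0.00 and 0.01 over all genes.

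The change of this lineage difference with the day was tested as an interaction in the same model, in which 1.57% of all genes were called. Rab25 was the 1 gene of the 10 called, as the DEP minus MP difference was larger at day 4 than at day 2 by 1.80 (SE 0.25, adjusted p = 0.00267). In MP, Rab25 was 1.04 lower on the log2 scale at day 4 than at day 2 (SE 0.18, adjusted p = 0.00451), and it was the 1 gene of the 10 called there, where 1.74% of all genes were called. This MP difference was -0.86, and not called, without the first MP array of day 2, and -0.97 without the first of day 4, while the interaction kept its call without any 1 array (1.62 to 1.99). In DEP, Rab25 was 0.77 higher at day 4 (SE 0.18, adjusted p = 0.107), and 0 of the 10 genes were called, where 0.443% of all genes were. An unadjusted p below 0.05 was found in 1 of the 10, and no share of all genes was computed for that cut.

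Within the T+ cells, MES lacked CD24 and MP of the same day carried it. St14 was 3.25-fold lower in MES (log2 fold change -1.70, SE 0.12, adjusted p = 2.66e-05) and Rab25 was 2.3-fold lower (-1.20, SE 0.18, adjusted p = 0.00235). These 2 of 10 genes were the ones called, where 1.18% of all genes were called and 0.807% were called lower. Spint1 (-0.70, adjusted p = 0.00144) and Crb3 (-0.81, adjusted p = 0.0459) were also below MP without reaching the fold threshold, and Crb3 was called at -1.18 without the first MES array, the higher of the pair. Pard6b ran the other way, at 0.36 (adjusted p = 0.0618). The median over the 10 genes was -0.25, against 0.00 over all genes.

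Within the Foxa2+ cells, DE and DEP were parted by the CD24 gate, high against low. At day 4 Llgl2 was 2.1-fold higher in DE (log2 fold change 1.07, SE 0.14, adjusted p = 2.48e-04), the 1 of 10 genes called, where 6.36% of all genes were. Without the second DEP array of day 4 the value was 0.93, and the gene was no longer called. Spint1 (0.79, adjusted p = 1.21e-04), Pard6b (0.67, adjusted p = 3.08e-04), Crb3 (0.67, adjusted p = 0.0359), Pard3 (0.58, adjusted p = 0.00128) and St14 (0.42, adjusted p = 0.0314) were above DEP with an adjusted p below 0.05 and a fold below the threshold. Prkci was below DEP by 0.36 (adjusted p = 0.0135). Rab25 did not differ between the gates beyond its spread. At day 2, 0 of 10 were called by limma, where 3.61% of all genes were, and 6 had an unadjusted p below 0.05; Llgl2 had the largest difference (0.63, SE 0.14, adjusted p = 0.0149). The change of the DE minus DEP difference with the day called 0 of the 10, where 1.05% of all genes were called, and 3 had an unadjusted p below 0.05. Between day 4 and day 2 of DE, 0 of 10 were called, where 1.87% of all genes were, and 6 had an unadjusted p below 0.05. The shares of all genes given here are for calls with the fold threshold and the adjusted p. No share was computed for the unadjusted p, so the counts at that cut have no background to be read against. Rab25 (0.85, adjusted p = 0.015) and Spint1 (0.60, adjusted p = 0.00344) were higher at day 4 in DE without reaching the fold threshold, and Rab25 was called at 1.02 without the first DE array of day 2.

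The comparisons with mESCs all use the same 2 unsorted arrays, in which the fibroblast markers Dcn, Postn and Thy1 had means of 10.99, 10.27 and 11.09, against at most 6.33, 5.30 and 8.09 in any sorted group; the part of fibroblast RNA in these values was not tested. In DE at day 4, 3 of the 10 genes were called, all higher, where 11.4% of all genes were called and 4.96% were called higher. They were Crb3, 3.21-fold above mESCs (log2 fold change 1.68, SE 0.20, adjusted p = 4.77e-05), Rab25, 2.19-fold (1.13, SE 0.18, adjusted p = 4.13e-04), and Spint1 (1.00, SE 0.09, adjusted p = 9.19e-06), which lay at the threshold and lost its call without the second DE array (0.97) or the first mESC array (0.98). Pard6b (0.98, adjusted p = 8.88e-06), St14 (0.89, adjusted p = 1.44e-04) and Pard3 (0.84, adjusted p = 4.12e-05) came close to the fold threshold, and 1 array decided it in Pard6b (1.03 without the second DE array) and St14 (1.05 without the first mESC array). Prkci was 0.66 below mESCs (adjusted p = 1.09e-04).

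In MES, Rab25 was 5.47-fold below mESCs (log2 fold change -2.45, SE 0.18, adjusted p = 1.77e-06) and St14 3.08-fold (-1.62, SE 0.12, adjusted p = 2.25e-06). These 2 of 10 were called, where 7.09% of all genes were called and 4.5% were called lower. Spint1 (-0.99, adjusted p = 1.72e-05), Llgl2 (-0.95, adjusted p = 5.33e-04) and Crb3 (-0.75, adjusted p = 0.0182) were below mESCs short of the threshold, and each passed it without 1 array: Spint1 and Llgl2 without the first mESC array (-1.01 and -1.11), Spint1 and Crb3 without the first MES array (-1.03 and -1.12). Pard6b was 0.90 above mESCs in MES (adjusted p = 2.91e-05) and Pard3 0.60 (adjusted p = 8.17e-04), the direction they had in DE too, where the same mESC arrays are used.

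At day 2, 1 of the 10 genes was called in each progenitor group against mESCs. In DEP, Crb3 was the 1 gene called, at 2-fold above mESCs (log2 fold change 1.00, SE 0.20, adjusted p = 0.00482), where 4.74% of all genes were called. It lost its call without the first DEP array (0.94) or the first mESC array (0.96). In MP, Llgl2 was the 1 gene called, 2.16-fold below mESCs (-1.11, SE 0.14, adjusted p = 2.59e-04), where 4.94% of all genes were. Its value was -0.93 without the second MP array and -0.95 without the second mESC array, below the fold threshold in both. For the adjusted p alone and for the unadjusted p, no share of all genes was computed, so counts at these cuts have no background. With the adjusted p alone, 5 of the 10 genes passed in DEP (7 at an unadjusted p below 0.05) and 2 in MP (4 at an unadjusted p below 0.05). Besides Crb3, those in DEP were St14 (0.61, adjusted p = 0.00487), Llgl2 (-0.56, adjusted p = 0.0209), Pard6b (0.35, adjusted p = 0.0258) and Pard3 (0.34, adjusted p = 0.033), and Pard3 was the other in MP (0.33, adjusted p = 0.0364). Rab25 was 0.40 above mESCs in DEP (SE 0.18, adjusted p = 0.171). The median over the 10 genes was 0.34 in DEP and 0.08 in MP, against 0.05 and 0.04 over all genes.

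The 10 genes fell into groups by their course over the 16 arrays, which come in pairs of replicates from 8 groups, so that r describes mostly the group means. Crb3, Spint1, St14 and Rab25 ran together, with r between 0.862 (Rab25 and Crb3) and 0.922 (Crb3 and Spint1). Pard3 and Pard6b ran together with r of 0.939. Prkci ran against Crb3 (-0.769), Spint1 (-0.73) and Pard3 (-0.703). The genes most like Rab25 among all 18716 were Ocln, Slc25a23 and Met (r of 0.976, 0.953 and 0.952). Those most like Crb3 were Fzd6, Cyb561 and Spint2 (0.955, 0.955 and 0.953), and those most like St14 were Cldn7, Tom1l1 and Tmem102 (0.973, 0.961 and 0.954). Ocln, which encodes occludin, had group means of 10.01 in DE at day 4, 9.48 in DEP at day 4, 6.41 in MES and 7.84 in MP at day 4, and 8.64 in mESCs.

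**Figure D3:**
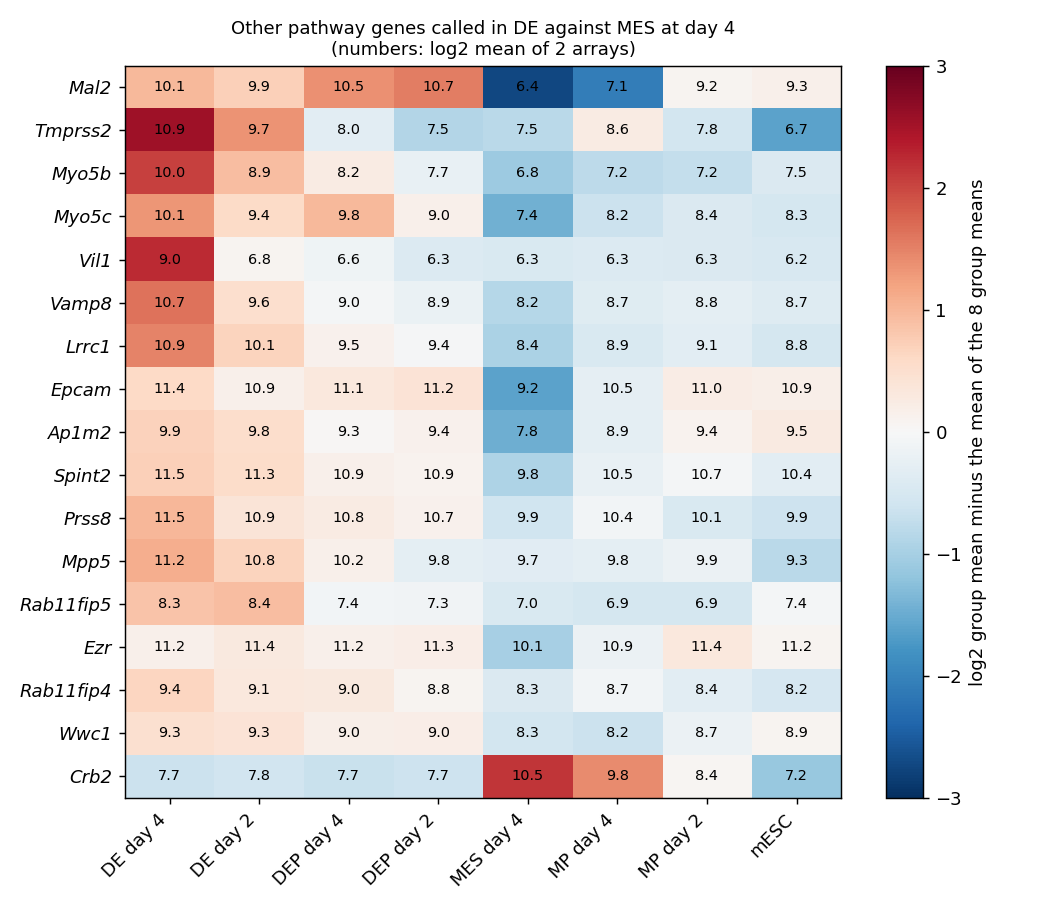
Group means on the log2 scale of the 17 other polarity and trafficking genes called in DE against MES at day 4, coloured by the difference from the mean of the 8 groups. The first 16 rows are higher in DE, and Crb2 in the last row is higher in MES and MP.

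A further 61 genes of the same machinery were listed by role, also with earlier results of these data known, and 60 of them were measured. In DE against MES 16 were called higher and 1 lower, where 7.86% of all genes were called, and the median of the 60 log2 fold change was 0.19, against 0.02 over all genes. In DE at day 4 against mESCs 13 were higher and 0 lower by limma, where 11.4% of all genes were called and 4.96% were called higher. In MES against mESCs 3 were higher and 5 lower, where 7.09% of all genes were called. In DE against DEP at day 4 7 were higher and 1 lower (6.36% of all genes), in DEP against MP at day 4 3 were higher and 2 lower (3.55% of all genes), and in MES against MP 2 were lower (1.18% of all genes).

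Of 7 further Crumbs complex genes 1 was called higher and 1 lower in DE against MES, where 7.86% of all genes were called. Mpp5 (Pals1), the scaffold that holds Crumbs proteins at the junction, was higher in DE by 1.45 (SE 0.16, adjusted p = 4.26e-05). Crb2, the Crumbs protein that mouse embryos need for mesoderm cells to leave the epiblast, had the opposite course to Crb3. It gave 7.81 and 7.57 in DE at day 4 and 7.64 and 7.72 in DEP at day 4, against 10.60 and 10.38 in MES, 10.05 and 9.48 in MP at day 4, 8.38 and 8.43 in MP at day 2, and 7.25 and 7.17 in mESCs. It was 6.98-fold higher in MES than in DE (log2 fold change of DE against MES -2.80, SE 0.16, adjusted p = 1.89e-07) and 9.73-fold higher in MES than in mESCs (3.28, SE 0.16, adjusted p = 8.78e-08). Patj, a partner of Mpp5, was called in DE at day 4 against mESCs (1.21, adjusted p = 2.05e-04), and not without the second mESC array (0.89).

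Of 8 further genes of the PAR complex and its partners 1 was called in DE against MES, where 7.86% of all genes were, so the count is near the share over all genes. It was Wwc1 (Kibra, 1.03, adjusted p = 1.36e-04), whose value was 0.99 without the first DE or the first MES array. Pard6g, a paralog of Pard6b, was higher in DE than in DEP at day 4 (1.03, adjusted p = 9.61e-04) and lower in DEP at day 2 than in mESCs (-1.14, adjusted p = 6.39e-04). Both Pard6g calls ended without 1 array, at 0.97 without the first DEP array of day 4 and at -0.998 without the first DEP array of day 2. Of 8 further Scribble module genes 1 was likewise called, again near the share over all genes. This was Lrrc1 (Lano), a protein related to Scribble, which gave 10.81 and 10.92 in DE at day 4, against 8.31 and 8.54 in MES, a difference of 2.44 (SE 0.12, adjusted p = 6.75e-08), and it was also higher in DE than in DEP at day 4 (1.35, adjusted p = 1.14e-05). Dlg5 was higher in MES than in mESCs (1.07, adjusted p = 6.78e-05), and not called without the second mESC array (0.91).

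Apical trafficking was the longest list. Of its 20 genes 7 were called higher in DE than in MES and 0 lower by limma. Over all genes, 7.86% were called and 4.26% were called higher. Mal2, a membrane protein of transcytosis to the apical surface, gave 10.11 and 10.11 in DE at day 4 and 10.48 and 10.56 in DEP at day 4, against 6.56 and 6.25 in MES, 7.28 and 6.85 in MP at day 4, 9.39 and 9.04 in MP at day 2 and 9.62 and 8.94 in mESCs. Like Rab25, it was higher in DEP than in MP at day 4 (3.46, SE 0.23, adjusted p = 1.80e-06), and it was called at day 2 too (1.45, SE 0.23, adjusted p = 0.00543), though not without the first DEP array (adjusted p = 0.0689) or the second MP array of that day (adjusted p = 0.0747). The motors Myo5b, which carries Rab11-family endosomes, and Myo5c were higher in DE than in MES by 3.15 (SE 0.16, adjusted p = 7.30e-08) and 2.75 (SE 0.11, adjusted p = 1.45e-08). In DE against DEP at day 4 Myo5b was called (1.82, SE 0.16, adjusted p = 9.11e-06), and Myo5c differed by 0.35 (SE 0.11, adjusted p = 0.0462). The DEP minus MP difference of Myo5c was larger at day 4 than at day 2 by 1.03 (SE 0.15, adjusted p = 0.00406), a call that ended with equal array medians (0.999) and without any of 3 arrays (lowest value 0.92). Vamp8, a SNARE of late and apical membranes, was higher in DE than in MES (2.48, SE 0.20, adjusted p = 2.93e-06). Ap1m2, the adaptor subunit that sorts cargo to the basolateral side, was lower in MES than in MP (-1.17, SE 0.13, adjusted p = 3.73e-04). Stx3, a syntaxin of the apical membrane, was lower in MES than in mESCs (-1.37, SE 0.13, adjusted p = 1.29e-05). Rab11fip5, an effector of the Rab11 family, gave 8.29 and 8.33 in DE at day 4, against 7.12 and 6.89 in MES, a difference of 1.30 (SE 0.13, adjusted p = 2.00e-05). Rab11fip1, another effector, went the other way from Rab25 and was lower in DEP than in MP at day 4 (-1.19, SE 0.14, adjusted p = 1.74e-04).

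**Figure D4:**
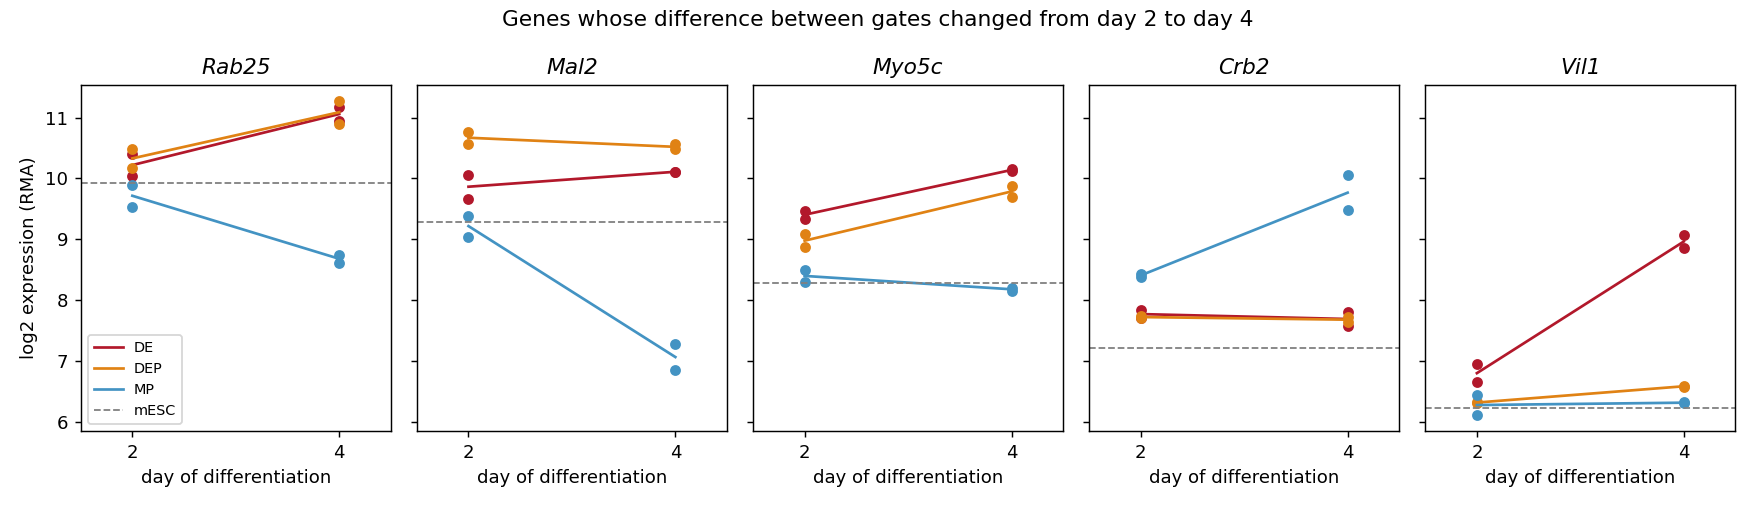
log2 expression at days 2 and 4 in DE, DEP and MP of the 5 genes whose difference between 2 gates changed with the day, with points for arrays, lines through the means and a dashed line at the mESC mean. Rab25 and Mal2 are above MP in DEP at both days, and further above at day 4, Crb2 is higher in MP at day 4, and Vil1 is high in DE at day 4 alone.

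Of 9 genes of the apical membrane and its scaffold 2 were called in DE against MES, where 7.86% of all genes were called. Vil1 (villin), an actin bundler of microvilli, gave 8.85 and 9.07 in DE at day 4, against 6.65 and 6.94 in DE at day 2 and 6.58 and 6.58 in DEP at day 4, and 6.41 and 6.11 in MES. Its DE minus DEP difference was larger at day 4 than at day 2 by 1.90 (SE 0.20, adjusted p = 0.00154). DE at day 4 was also the group with the highest Apoa1 and Hnf4a, as given above. Ezr (ezrin), which links the apical membrane to actin, was higher in DE than in MES by 1.14 (SE 0.13, adjusted p = 4.45e-05), with MES as the low group (10.01 and 10.20, against 11.00 and 11.32 in mESCs). Slc9a3r1 (NHERF1), a partner of ezrin, differed by 0.81 (adjusted p = 2.13e-04) between DE and MES, below the fold threshold, and was higher in DE than in mESCs (1.46, SE 0.11, adjusted p = 1.27e-06). Podxl, an apical sialomucin, was higher than in mESCs in DE at day 4 (3.25, adjusted p = 3.61e-08) and in MES (2.39, adjusted p = 6.82e-07), with the same mESC arrays in both. Prom1 was lower in DE than in DEP at day 4 (-1.51, adjusted p = 8.90e-05).

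Of 8 measured genes around matriptase 4 were called higher in DE than in MES, where 4.26% of all genes were called higher. Prss8 (prostasin), a protease that works with matriptase, gave 11.55 and 11.51 in DE at day 4, against 9.88 and 10.00 in MES (1.59, SE 0.13, adjusted p = 4.47e-06). Spint2 (HAI-2), the second Kunitz inhibitor of matriptase, was higher by 1.65 (SE 0.09, adjusted p = 2.10e-07). Epcam, an adhesion protein that matriptase cleaves in human cells, gave 11.36 and 11.36 in DE at day 4, against 8.95 and 9.35 in MES, and was lower in MES than in MP by 1.35 (adjusted p = 4.85e-04 for a log2 fold change of -1.35, SE 0.16). Tmprss2, another membrane serine protease, gave 10.87 and 10.89 in DE at day 4, 9.10 and 10.31 in DE at day 2, and 7.96 and 8.11 in DEP at day 4. It gave 8.519 and 8.685 in MP at day 4, above DEP of that day, 7.37 and 7.71 in MES, and 6.83 and 6.63 in mESCs. It was 7.19-fold higher in DE than in DEP at day 4 (2.85, SE 0.29, adjusted p = 3.62e-05) and 10.1-fold higher in DE than in MES (3.34, SE 0.29, adjusted p = 6.77e-06).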

How the data were processed

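The authors imported the 16 scanner files together and normalized them by RMA (oligo 1.48.0), and their deposited values, on the log2 scale, already hold background correction, quantile normalization and probe summarization, so total RNA per cell is not recoverable. The scanner files were not used here. For the present comparisons, limma 3.58.1 under R 4.3.3 estimated a mean for each of 8 groups on the 32000 brightest probe sets by mean (eBayes without trend), with Benjamini-Hochberg adjustment over these probe sets in each of 15 comparisons. A gene was called at an absolute log2 fold change above 1 with an adjusted p below 0.05. Shares of called genes are over 18716 genes, 1 probe set each. Groups and replicates came from the labels. With 2 arrays per group the spread is pooled over the groups, and the number of arrays limits the precision. The 10 genes and all lists were chosen with earlier results of these data known. All 10 are described, with up to 3 called genes of largest change per list and comparison, and Ezr, Slc9a3r1, Spint2, Prss8 and Epcam always. Likeness is Pearson's r over the 16 arrays for genes whose group means span more than 2. Probe sets with several gene symbols (1400) or none (10173) name no gene. The fit was tested on simulated data. Alternatives were 16000 or all probe sets, equal array medians, trend and robust estimation, a replicate block, the adjusted p alone, the mean of a gene's probe sets and leaving out each array.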

Additional observations from a re-analysis of the deposited data

Results flagged for a closer look

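For 5 genes the difference between 2 gates changed between day 4 and day 2 by a test of the interaction in limma. In these tests 1.57% of all genes were called for DEP minus MP and 1.05% for DE minus DEP. For DEP minus MP they called 1 of the 10 genes and, of the 60 others measured, 2 in the higher and 1 in the lower direction. For DE minus DEP they called 0 of the 10 and 1 of the 60, near the share over all genes. The DEP minus MP difference was larger at day 4 by 1.803 for Rab25 (adjusted p = 0.00267), by 2.009 for Mal2 (adjusted p = 0.0066) and by 1.031 for Myo5c (adjusted p = 0.00406), and it moved by -1.405 for Crb2 (adjusted p = 0.00616), which was higher in MP. The DE minus DEP difference was larger at day 4 by 1.897 for Vil1 (adjusted p = 0.00154). The Myo5c call ended with equal array medians (0.999) and without any of 3 arrays (0.924 at the lowest), while those of the other 4 genes held under every alternative filter, scaling and model that kept the gene, and without any 1 array.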

How the results depend on the processing

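The count of called genes among the 10 did not change by over 1.5 times in any of the 15 comparisons with 16000 probe sets, with all probe sets, with equal array medians, with trend and robust estimation or with the replicate block. With the adjusted p alone and no fold threshold, the count was 3 in DE against DEP at day 2 and 7 at day 4. It was 4 in DEP against MP at day 4 and 4 in MES against MP. Against mESCs it was 5 in DEP and 2 in MP of day 2, and 8 in DE and 7 in MES of day 4. Between day 4 and day 2 it was 2 in DE and 2 in MP. The share of all genes that passed this looser cut was not computed, so these counts have no background to be read against. With an array left out, the counts lay between 0 and 1 in DE against DEP at day 4, 1 and 2 in DEP against MP at day 4, 2 and 3 in MES against MP, 0 and 1 in DEP and in MP of day 2 against mESCs, 2 and 4 in MES against mESCs, and 0 and 1 in DE and in MP between the days. They stayed at 5 in DE against MES and 3 in DE against mESCs. In the latter the genes called changed, as Pard6b replaced Spint1 without the second DE array and St14 replaced it without the first mESC array. Equal array medians moved Pard6b in DE against mESCs to 1.02 and Spint1 in MES against mESCs to -1.003, both then called. Of 77 calls of other pathway genes over all comparisons, 57 held under every one of these filters, scalings and models that kept the gene, and without any 1 array. The mean of both Prkcz probe sets gave 0.87 in DE against MES. The deviations of arrays with the same replicate number correlated between -0.20 and 0.25 over 28 pairs of groups, above 0.1 in 8 of them. Such correlations cannot tell whether these arrays share a culture or a batch. With the replicate block, the counts were 5 in DE against MES, 1 in DEP against MP at day 4 and 3 in DE of day 4 against mESCs. Genes near the fold threshold with 2 arrays per group are those that move.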
